A study of Mus musculus with 16 samples.

Results

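The T cell receptor (TCR) gene segments examined here were the α and β chain segments that the array could name. They were taken as every probe set whose platform gene symbol was Trav9d-3, Trbv13-2 or Trbv1, together with any whose symbols all began with Trav, Trbv, Traj, Trbj, Trac or Trbc. This rule found 10 probe sets of 6 genes, among 12422 probe sets and 8251 named genes on the array, all of them variable (V) segments: 7 probe sets of the 3 named genes and 1 each of Trav19, Trav6-2 and Trav12n-1. There were 0 probe sets named for a joining or constant segment. A probe set is the group of short probes that reads 1 stretch of a transcript, and each is given apart.

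Each developing T cell assembles its α and β chain genes by joining variable, joining and, for β, diversity segments, and a single V segment therefore marks only the cells that chose it. The β chain is rearranged first and pairs with pre-Tα, and a completed β chain stops further β rearrangement (allelic exclusion). The α chain is rearranged at the CD4+CD8+ stage. A rearranged TCR transgene supplies both chains early, and the BDC2.5 receptor is known by its Vα1 and Vβ4 segments. Vβ4 is Trbv2, Vβ8.2 is Trbv13-2 and Vβ2 is Trbv1 in the RefSeq synonyms, and no probe set analysed here names Trbv2. The RefSeq synonyms of Trav9d-3 give no Vα number, so whether it is the Vα1 of the transgene cannot be told here.

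The arrays measured total RNA of CD4+CD8+ (double-positive) thymocytes grown in fetal thymic organ culture, the culture of whole thymus lobes, for a study of thymocyte negative selection. There were 6 groups: BDC2.5 transgenic on NOD with peptide for 16 h (n = 3), BDC2.5 on NOD with no peptide (n = 3), wild-type NOD (n = 2), BDC2.5 on B6g7 with peptide for 16 h (n = 3), BDC2.5 on B6g7 with no peptide (n = 3) and wild-type B6g7 (n = 2). The BDC2.5 receptor was cloned from an islet-reactive CD4 T cell. The NOD strain is prone to autoimmune diabetes, and the B6g7 strain shares its MHC haplotype but has C57BL/6 genes elsewhere. The labels give no peptide name, dose or age, no word on whether wild-type lobes had peptide, no transgene promoter and no word on whether arrays of a group came from separate animals or pools, so the spread between arrays may be technical.

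Array medians lay between 54.7 and 59.1 intensity units. The table has no detection values, so a level at or below these medians cannot be told from background here. The defining genes of the stage, Cd4 (158.1 to 327.0), Cd8a (1074 to 5146), Rag1 (543.0 to 4745) and Dntt (864.0 to 4624), were above the array median on 16 of 16 arrays. On 6 arrays (number 3 of each BDC2.5 group and number 2 of each wild-type group), the 3' minus 5' signal of β-actin was 1.37 to 1.96 (log2), against 2.24 to 3.27 on the other 10. These 6 arrays are called set apart here, and the values without them are given where they differ. Summed marker intensities ran over all arrays from 1311 to 2648 for 12 B cell markers, from 724.6 to 1727 for 16 myeloid and dendritic markers, from 308.6 to 406.2 for 8 thymic epithelial markers, from 698.4 to 868.6 for 10 mesenchymal and endothelial markers, from 366.5 to 520.6 for 7 erythroid markers and from 494.0 to 962.5 for 9 NK and innate lymphocyte markers, with 0 markers listed at 0. In RNA of many cells, fewer cells with a segment and less RNA per cell cannot be told apart.

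The 3 named genes had been chosen from measured intensities of these arrays, in earlier results that did not record by which comparison. The transgene and strain comparisons were taken to be those used, and if the peptide comparison was used too, its tests below are a description as well. Their differences between BDC2.5 and wild-type cells and between strains are therefore given as a description, with no test. Their peptide differences, and every comparison of the other segments, come from limma over all 12422 probe sets.

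The β segments Trbv13-2 and Trbv1, with 3 of their 4 probe sets, read lower in BDC2.5 thymocytes than in wild-type thymocytes of both strains. By 101279_f_at, whose suffix marks probes shared by a gene family, Trbv13-2 had 51.3, 74.7 and 37.2 in BDC2.5/NOD cells without peptide, against 239 and 278 in wild-type NOD cells. In B6g7 the same probe set had 40.6, 42.0 and 37.3 in BDC2.5 cells without peptide, against 315 and 247 in wild-type cells. Every BDC2.5 array was thus below every wild-type array. The log2 difference was -2.30 ± 0.27 in NOD and -2.81 ± 0.27 in B6g7 (SE of the fit, n = 3 and 2), or 0.203 and 0.143 times the wild-type level. Only 1 of the 3 BDC2.5/NOD arrays and 0 of the 3 BDC2.5/B6g7 arrays exceeded their array median, so the size of the gap is uncertain.

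The other Trbv13-2 probe set, 94202_at, was dimmer and showed the same order. It had 28.6, 34.3 and 24.6 in BDC2.5/NOD cells without peptide, against 72.9 and 65.2 in wild-type NOD cells, and 24.2, 25.5 and 21.9 in BDC2.5/B6g7 cells, against 62.1 and 48.5 in wild-type B6g7 cells. The log2 differences were -1.26 ± 0.19 in NOD and -1.21 ± 0.19 in B6g7. The BDC2.5 arrays did not overlap the wild-type arrays, but all were below the array medians, so the size of the gap is uncertain.

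Trbv1 had 2 probe sets that did not go together. By 94726_at it had 65.4, 52.1 and 50.9 in BDC2.5/NOD cells without peptide, against 115 and 150 in wild-type NOD cells (log2 -1.24 ± 0.16). In B6g7 it had 55.3, 51.6 and 51.4 in BDC2.5 cells, against 197 and 172 in wild-type cells (-1.81 ± 0.16). Here too the BDC2.5 arrays lay below all wild-type arrays, and only 1 of 3 in NOD and 0 of 3 in B6g7 exceeded the array median, which leaves the sizes uncertain.

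By 93105_s_at, a probe set whose suffix marks probes common to several transcripts, Trbv1 read near the top of the scale on every array and was somewhat higher in BDC2.5 cells. It had 12447, 11437 and 12675 in BDC2.5/NOD cells without peptide, against 8569 and 9802 in wild-type NOD cells (log2 0.41 ± 0.14). In B6g7 it had 10968, 10944 and 12059 in BDC2.5 cells, against 9096 and 9291 in wild-type cells (0.30 ± 0.14). The groups did not overlap. The highest intensity of any probe set in the table was 13168, and with quantile normalization, which ties the brightest probe sets to 1 distribution, the differences shrank to 0.23 and 0.17. The annotation does not say which stretch of the β chain message it reads.

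**Figure D1:**
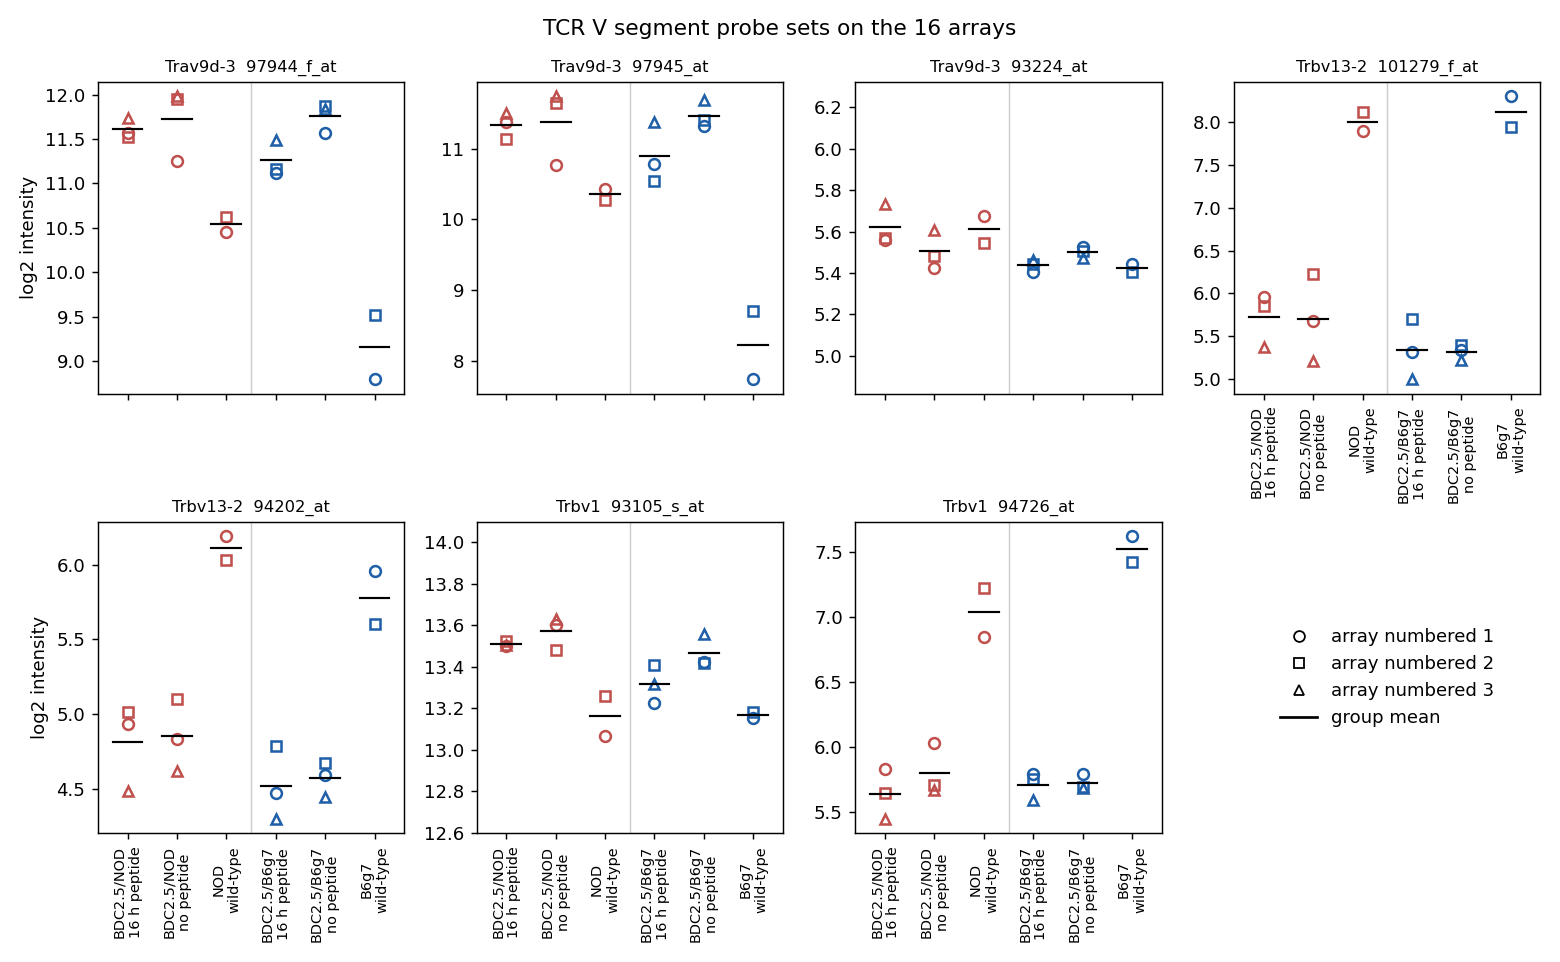
Log2 intensity (vertical axes) of the 7 probe sets of Trav9d-3, Trbv13-2 and Trbv1 in the 6 groups (horizontal axes), with 1 symbol per array, its shape giving the array's number, and a bar at the group mean. Trbv13-2 by both probe sets and Trbv1 by 94726_at were high in the wild-type groups, while Trav9d-3 by 97944_f_at and 97945_at was lowest in wild-type B6g7 and next lowest in wild-type NOD.

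The α segment Trav9d-3 read higher in BDC2.5 than in wild-type thymocytes by 2 of its 3 probe sets, and by more in B6g7. The suffix of 97944_f_at also marks probes shared by a gene family, so its signal need not come from Trav9d-3 alone. By this probe set Trav9d-3 had 2445, 3959 and 4038 in BDC2.5/NOD cells without peptide, against 1404 and 1578 in wild-type NOD cells. The B6g7 arrays gave 3027, 3743 and 3651 in BDC2.5 cells, against 444 and 733 in wild-type cells. Without peptide the BDC2.5 cells of both strains covered the same range, while the wild-type cells of the strains did not overlap. The log2 difference was 1.19 ± 0.26 in NOD and 2.60 ± 0.26 in B6g7, or 2.28-fold and 6.06-fold.

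By 97945_at, Trav9d-3 had 1735, 3197 and 3406 in BDC2.5/NOD cells without peptide, against 1378 and 1241 in wild-type NOD cells, a log2 difference of 1.03 ± 0.34. The B6g7 arrays gave 2553, 2697 and 3283 in BDC2.5 cells, against 214 and 417 in wild-type cells, a log2 difference of 3.24 ± 0.34. The smaller NOD difference by this probe set was 0.77 without the 6 arrays set apart and 1.46 within them. Within groups the 2 probe sets moved together, with a Pearson correlation of 0.92 of the log2 values over 16 arrays after the group means were removed, which is a description of arrays that share their RNA.

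The third Trav9d-3 probe set, 93224_at, did not follow the others. It had 43.0, 44.7 and 48.7 in BDC2.5/NOD cells without peptide, against 51.2 and 46.6 in wild-type NOD cells, and 46.0, 45.5 and 44.4 in BDC2.5/B6g7 cells, against 43.6 and 42.4 in wild-type B6g7 cells. In B6g7 the BDC2.5 arrays even so lay above both wild-type arrays. All of these values lie below the array medians, and the log2 differences were -0.11 ± 0.10 and 0.08 ± 0.10. The symbol thus covers probe sets with unlike levels and unlike patterns, and the annotation does not say which part of an α chain message each one reads.

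The other 3 V segments stayed low throughout. Trav19 (101823_at) lay between 23.4 and 33.9 over the 16 arrays, Trav6-2 (101824_at) between 21.5 and 30.9 and Trav12n-1 (93223_at) between 16.6 and 20.5, so that 0 of their 48 values reached the array median. In BDC2.5 cells without peptide minus wild-type cells, Trav19 gave 0.11 ± 0.13 in NOD and -0.13 ± 0.13 in B6g7, Trav6-2 0.15 ± 0.13 and 0.06 ± 0.13, and Trav12n-1 -0.11 ± 0.10 and 0.01 ± 0.10. None was called by limma in either strain (adjusted p = 0.999 each in NOD and 1 each in B6g7, with 0 of 3 at an unadjusted p under 0.05). In B6g7 the BDC2.5 arrays of Trav19 nevertheless lay below both wild-type arrays (27.9, 27.5 and 23.4 against 28.8 and 28.5). A lack of overlap between so few arrays is thus only a description, here and for the named genes. Its share over all probe sets is not given.

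**Figure D2:**
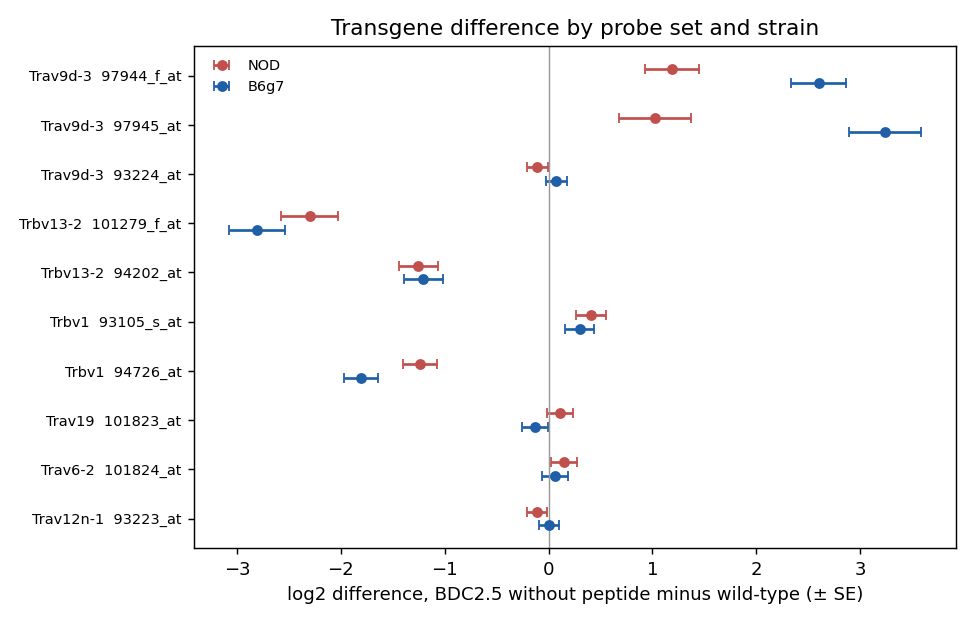
Log2 difference (horizontal axis) of BDC2.5 cells without peptide minus wild-type cells for each of the 10 probe sets (rows), in NOD and in B6g7, with points for the fitted value and bars for its standard error. Both Trbv13-2 probe sets and Trbv1 by 94726_at lie left of 0 in both strains, Trav9d-3 by 97944_f_at and 97945_at lies right of 0 and farther right in B6g7, and the other α probe sets lie near 0.

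Over all probe sets, limma called 0.0564% in NOD (7 of 12422) and 0.0805% in B6g7 (10) between BDC2.5 cells without peptide and wild-type cells, at an adjusted p under 0.05. Of the 10 TCR probe sets, 3 were among them in NOD, all lower, and 5 in B6g7, 3 lower and 2 higher. For the mean of both strains it called 0.105% (13), of which 5 were TCR probe sets. These members were chosen with such results known, and nothing is read from the counts. The median over the 10 probe sets was 0.00 in NOD and 0.04 in B6g7, against 0.04 and -0.02 over all probe sets, since the members moved in opposite directions. The NOD count was 0 without the wild-type NOD array numbered 2 or without the 6 arrays set apart, and 1 without the wild-type NOD array numbered 1 or the BDC2.5/NOD no-peptide array numbered 3.

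Whether the transgene difference itself was unequal between strains was tested only on the segments outside the 3 named genes. These segments read below the array median on every array, so their test cannot answer the question. Trav19, Trav6-2 and Trav12n-1 gave NOD minus B6g7 values of 0.24 ± 0.18, 0.09 ± 0.18 and -0.12 ± 0.14 (limma adjusted p = 1 each). For the named genes the same quantity was -1.41 ± 0.37 and -2.22 ± 0.49 by the 2 bright Trav9d-3 probe sets, 0.51 ± 0.39 and -0.05 ± 0.27 for Trbv13-2, and 0.11 ± 0.20 and 0.57 ± 0.23 for Trbv1, with no test. Limma called 0% of all probe sets for this quantity, and 104 had an unadjusted p under 0.05.

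Among the V segments, the strain difference in wild-type cells was largest by value for the 2 bright Trav9d-3 probe sets. The third, 93224_at, gave a log2 value of 0.185 (NOD minus B6g7), and Trbv1 by 93105_s_at gave -0.004. Wild-type NOD exceeded wild-type B6g7 by 1.38 ± 0.29 (97944_f_at) and 2.13 ± 0.38 (97945_at) on the log2 scale, which is 2.61-fold and 4.37-fold. Without the wild-type B6g7 array numbered 1 these were 1.02 and 1.65. They were 1.66 and 2.68 without the 6 arrays set apart, and 1.11 and 1.58 within them. Trbv1 by 94726_at read lower in wild-type NOD (-0.49 ± 0.18), by -0.30 without the wild-type NOD array numbered 1, -0.78 without the 6 arrays and -0.20 within them, and Trbv13-2 gave -0.12 ± 0.30 and 0.33 ± 0.21 by its 2 probe sets. Trav19 (-0.13 ± 0.14), Trav6-2 (-0.13 ± 0.14) and Trav12n-1 (0.11 ± 0.11) were not called (limma adjusted p = 1 each). Limma called 0.0886% of all probe sets and 0 of the 10 members, of which 3 had an unadjusted p under 0.05. With the replicate number as a block, or the array set as a block, 2 of the members were called. Of the 10, 7 belong to the named genes, and nothing is read from these counts. The summed myeloid and dendritic markers were 757.9 to 799.4 in wild-type NOD cells and 1025 to 1490 in wild-type B6g7 cells. Of the 16 markers, 8 were higher and 8 lower by value in wild-type NOD. The gap between the sums lay mostly in Apoe, which was named after its values were seen. Apoe had 102 and 124 in wild-type NOD cells against 822 and 328 in wild-type B6g7 cells. The part of these markers in the Trav9d-3 difference was not tested.

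In BDC2.5 cells the strains were closer for the bright Trav9d-3 probe sets and for Trbv1 by 94726_at, and farther apart by value for Trbv13-2 by 101279_f_at and Trbv1 by 93105_s_at. Without peptide, NOD minus B6g7 was -0.03 ± 0.24 and -0.09 ± 0.31 for the 2 bright Trav9d-3 probe sets, 0.39 ± 0.24 and 0.28 ± 0.17 for Trbv13-2, and 0.11 ± 0.13 and 0.08 ± 0.15 for Trbv1. At 16 h of peptide the values were 0.35 ± 0.24 and 0.44 ± 0.31 for the same Trav9d-3 probe sets. They were 0.39 ± 0.24 and 0.30 ± 0.17 for Trbv13-2, and 0.19 ± 0.13 and -0.07 ± 0.15 for Trbv1. Trav9d-3 by 93224_at gave 0.004 without peptide and 0.184 at 16 h. The TCR probe sets called were 0 of 10 in both states, against 0.266% of all probe sets without peptide and 0.491% at 16 h (limma, with 0 of 10 at an unadjusted p under 0.05 in both states), and nothing is read from these counts for the named genes either. At 16 h, 97944_f_at had 3037, 2934 and 3414 in BDC2.5/NOD cells, against 2229, 2299 and 2882 in BDC2.5/B6g7 cells. The arrays did not overlap, while those of 97945_at did.

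The order of the 6 groups was the same for both bright Trav9d-3 probe sets apart from the closely spaced BDC2.5 groups. By 97944_f_at the mean intensity was 3481 ± 898 (SD) in BDC2.5/NOD and 3474 ± 390 in BDC2.5/B6g7 without peptide, 3128 ± 253 and 2470 ± 358 in the same strains at 16 h, 1491 ± 123 in wild-type NOD and 588 ± 205 in wild-type B6g7. The first 3 of these overlapped each other. BDC2.5/B6g7 at 16 h overlapped only BDC2.5/NOD without peptide, through its array of 2445. Wild-type NOD lay below every BDC2.5 array, and wild-type B6g7 lay below wild-type NOD. For Trbv13-2 by 101279_f_at the 4 BDC2.5 groups averaged from 40.0 ± 2.4 to 54.4 ± 18.9 and overlapped each other, and wild-type NOD at 258 ± 28 overlapped wild-type B6g7 at 281 ± 48.

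The response to 16 h of peptide in BDC2.5 cells was tested for every segment. In B6g7 the bright Trav9d-3 probe sets read lower with peptide, without passing the test. By 97944_f_at the values were 2229, 2299 and 2882 at 16 h, against 3027, 3743 and 3651 without peptide, with no overlap (log2 -0.50 ± 0.24, 95% interval -1.003 to 0.012, limma adjusted p = 1, unadjusted p = 0.0549). By 97945_at they were 1754, 1486 and 2654 at 16 h, against 2553, 2697 and 3283 without peptide (-0.57 ± 0.31, interval -1.23 to 0.09, limma adjusted p = 1), and 1 peptide array lay inside the range of the arrays without peptide. Between same-numbered arrays the peptide array was the lower in 3 of 3 pairs for both probe sets.

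In NOD the same probe sets gave smaller values. By 97944_f_at there were 3037, 2934 and 3414 at 16 h, against 2445, 3959 and 4038 without peptide (-0.12 ± 0.24, interval -0.63 to 0.39). By 97945_at there were 2651, 2244 and 2903 at 16 h, against 1735, 3197 and 3406 without peptide (-0.04 ± 0.31, interval -0.71 to 0.62). The peptide arrays lay within the range of the arrays without peptide in both. The difference between strains in the peptide response was 0.38 ± 0.33 (interval -0.34 to 1.09) and 0.53 ± 0.43 (interval -0.41 to 1.46), limma adjusted p = 1 each.

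By both of its probe sets, Trbv13-2 stayed low in BDC2.5 cells with peptide. Trbv13-2 by 101279_f_at had 62.3, 58.0 and 41.4 at 16 h in NOD, against 51.3, 74.7 and 37.2 without peptide (0.02 ± 0.24, interval -0.50 to 0.55). In B6g7 it had 39.8, 51.9 and 31.9 at 16 h, against 40.6, 42.0 and 37.3 without peptide (0.02 ± 0.24, interval -0.51 to 0.54). By 94202_at the peptide differences were -0.04 ± 0.17 and -0.05 ± 0.17. Most BDC2.5 arrays read below the array median by these probe sets, so a fall with peptide could hardly be seen. All 12 BDC2.5 arrays, with or without peptide, were below both wild-type arrays of their strain by each Trbv13-2 probe set.

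Trbv1 by 94726_at had 56.9, 50.1 and 43.5 at 16 h in NOD, against 65.4, 52.1 and 50.9 without peptide (-0.16 ± 0.15, interval -0.48 to 0.15). In B6g7 it had 55.3, 53.8 and 48.1 at 16 h, against 55.3, 51.6 and 51.4 without peptide (-0.01 ± 0.15, interval -0.33 to 0.30). By 93105_s_at it had 11588, 11787 and 11626 at 16 h in NOD, against 12447, 11437 and 12675 without peptide (-0.06 ± 0.13). In B6g7 that probe set had 9582, 10878 and 10222 at 16 h, against 10968, 10944 and 12059 without peptide (-0.15 ± 0.13), the peptide arrays lying below the others. Each of these differences had a limma adjusted p of 1. By 94726_at most BDC2.5 arrays read below the array median, so a fall could hardly be seen.

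**Figure D3:**
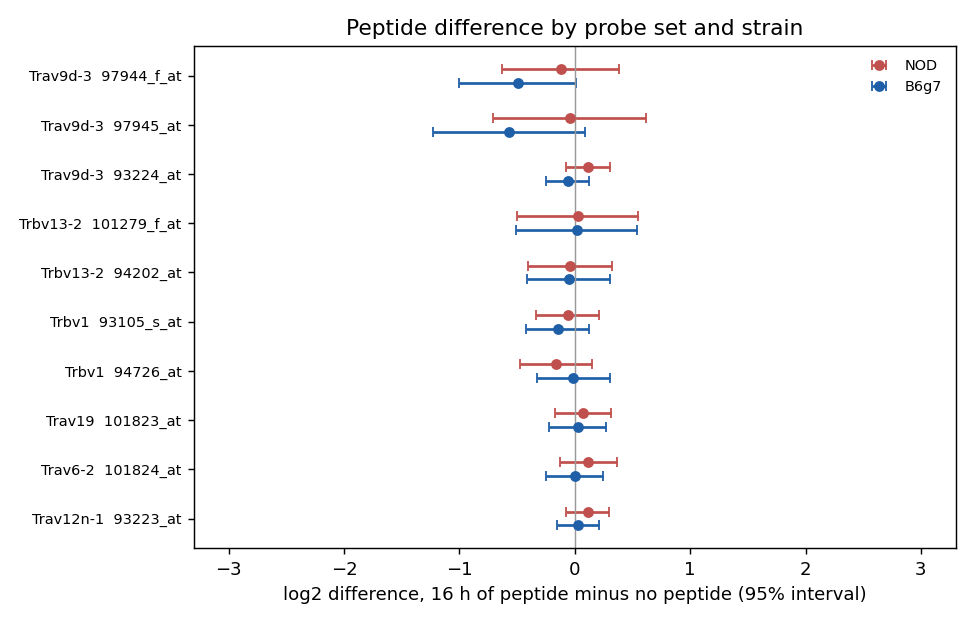
Log2 difference (horizontal axis) of 16 h of peptide minus no peptide in BDC2.5 cells for each of the 10 probe sets (rows), in NOD and in B6g7, with points for the fitted value and bars for its 95% interval. All intervals take in 0, and the values run from -0.16 to 0.12 in NOD and from -0.57 to 0.03 in B6g7.

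Limma called 0 of the 10 TCR probe sets for the peptide response in NOD, in B6g7, for their mean and for their difference, with 0 of 10 at an unadjusted p under 0.05 in each. Over all probe sets it called 0% in NOD, 0.00805% in B6g7 (1 probe set), 0.0242% for the mean (3) and 0% for the difference, while 207, 422, 445 and 147 probe sets had an unadjusted p below 0.05. The median over the 10 was -0.01 in NOD and -0.03 in B6g7, against -0.03 and -0.01 over all probe sets. Set against wild-type cells, the BDC2.5 cells at 16 h gave log2 values of -2.28 in NOD and -2.79 in B6g7 for Trbv13-2 by 101279_f_at, -1.40 and -1.82 for Trbv1 by 94726_at, and 1.07 and 2.11 for Trav9d-3 by 97944_f_at. These share their wild-type arrays with the values without peptide.

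Among BDC2.5 cells, the arrays set apart read low for the β segments by 3 of 4 probe sets, and also for Trav19 and Trav6-2. Both Trbv13-2 probe sets and Trbv1 by 94726_at were lowest on the array numbered 3 in 4 of 4 BDC2.5 groups, and 97945_at of Trav9d-3 was highest there in 4 of 4. In the wild-type groups 101279_f_at and 94726_at were lowest on the array set apart in 1 of 2, and 94202_at in 2 of 2. Trav19 was lowest on it in 4 of 4 BDC2.5 and 2 of 2 wild-type groups, and Trav6-2 in 3 of 4 and 2 of 2. The low reading was thus neither particular to the β segments nor confined to BDC2.5 cells. The transgene difference of Trbv13-2 by 101279_f_at was -1.95 in NOD and -2.93 in B6g7 without the 6 arrays, and -2.90 and -2.73 within them. For Trbv1 by 94726_at it was -0.98 and -1.89 without them, and -1.56 and -1.74 within them.

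Of the other receptor genes, Ptcra (pre-Tα, the partner of the β chain before an α chain is made) read lower in BDC2.5 cells in both strains. It had 184, 204 and 173 in BDC2.5/NOD cells without peptide, against 400 and 319 in wild-type NOD cells (-0.94 ± 0.24, limma adjusted p = 0.999). The B6g7 arrays gave 202, 189 and 193 in BDC2.5 cells, against 323 and 246 in wild-type cells (-0.54 ± 0.24, adjusted p = 1). For the mean of both strains Ptcra missed the threshold (-0.74 ± 0.17, limma adjusted p = 0.371). With the array set as a block it passed (adjusted p = 0.0144).

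The γ chain V segments of the other T cell lineage were read by 3 probe sets. Trgv4 (102745_at) had 36.6, 38.1 and 24.3 in BDC2.5/NOD cells without peptide, against 46.4 and 59.7 in wild-type NOD cells, and 51.6, 42.6 and 44.4 in BDC2.5/B6g7 cells, against 84.1 and 88.6 in wild-type B6g7 cells. All of these BDC2.5 arrays and 1 of the wild-type NOD arrays were below the array medians, so the sizes are uncertain. The mean difference was -0.80 ± 0.15 (limma adjusted p = 0.0632). It passed with quantile normalization (adjusted p = 0.0491), with 32 added to the intensities (0.0296), with the replicate block (0.0274), with the array set as a block (0.00974) and without the BDC2.5/NOD peptide array numbered 3 (0.043). The probe set of Trgv4 and Trgv2 (102744_at) gave -0.58 ± 0.17 (adjusted p = 0.970), and 0.0481 with the array set as a block. Trgv1 gave -0.16 in NOD and 0.52 in B6g7, so the γ segments did not share a direction.

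The CD3 chains, which carry the signal of any TCR, were not called between BDC2.5 and wild-type cells. The log2 differences of Cd3e, Cd3d, Cd3g and Cd247 were 0.03, 0.20, 0.32 and 0.31 in NOD and -0.05, 0.31, 0.21 and 0.04 in B6g7. Of the 5 CD3 and pre-TCR genes, 0 were called in either strain, with 1 at an unadjusted p under 0.05 in each, and the median was 0.20 and 0.04, against 0.04 and -0.02 over all probe sets. Cd3g read higher in NOD than in B6g7 in wild-type cells, with 1298 and 1601 against 703 and 682 (1.06 ± 0.27, limma adjusted p = 0.399). In BDC2.5 cells at 16 h of peptide this strain difference was 0.93 ± 0.22 (limma adjusted p = 0.12, and 0.0226 with the array set as a block). BDC2.5 cells without peptide had 1786, 2024 and 1604 in NOD against 844, 623 and 971 in B6g7. In the reported fit Cd3g was called only there (1.17 ± 0.22, limma adjusted p = 0.0459). This call was lost without any 1 of 15 of the 16 arrays (adjusted p = 0.0565 to 0.267), while the difference stayed between 0.99 and 1.31.

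None of the 8 measured genes of V(D)J recombination and end joining was called between BDC2.5 and wild-type cells. By value, 5 were lower and 3 higher in each strain, with medians of -0.41 and -0.34, against 0.04 and -0.02 over all probe sets, and limma called 0, with 0 in NOD and 1 in B6g7 at an unadjusted p under 0.05. In NOD and B6g7, Dntt (TdT, which adds bases at the joints) gave -0.56 ± 0.31 and -0.81 ± 0.31. Rag2 and Rag1, which together form the recombinase, gave -0.79 ± 0.41 and -0.67 ± 0.41, and -0.95 ± 0.66 and -1.07 ± 0.66. Xrcc6 (Ku70, of end joining) gave -0.62 ± 0.39 and -0.64 ± 0.39. Over 12 measured regulators of the receptor loci, the medians were -0.03 in NOD and -0.21 in B6g7, with 0 called and 0 at an unadjusted p under 0.05. The summed intensity of 10 double-positive markers, which include these recombination genes and Ptcra, was 10160 to 15550 in BDC2.5/NOD cells without peptide against 13360 to 18870 in wild-type NOD cells, and 11770 to 14050 in BDC2.5/B6g7 cells against 16530 to 20400 in wild-type B6g7 cells. Their part in the V segment differences was not tested.

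**Figure D4:**
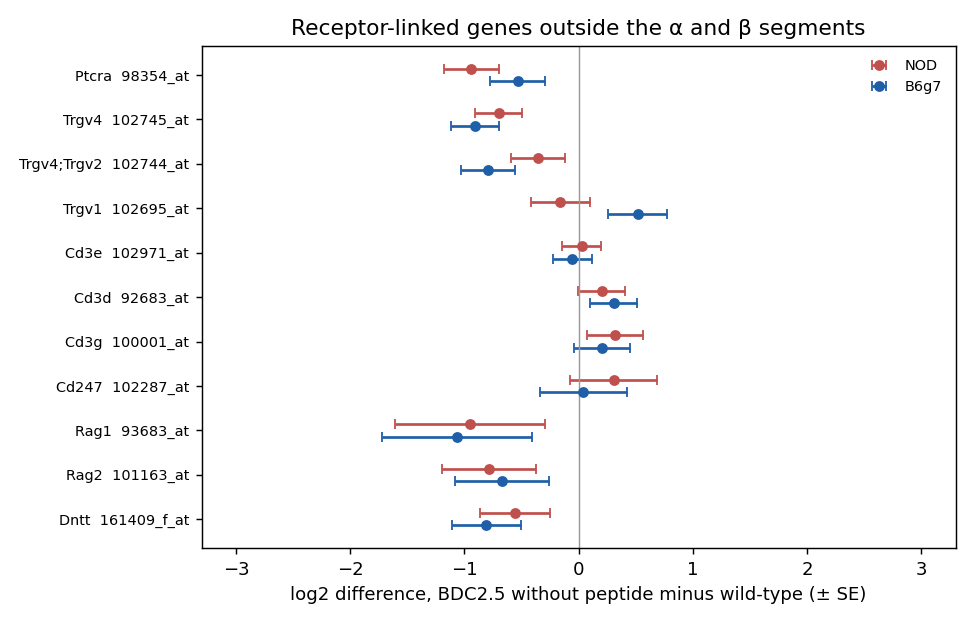
Log2 difference (horizontal axis) of BDC2.5 cells without peptide minus wild-type cells for the pre-TCR, γ segment, CD3 and recombination probe sets (rows), in NOD and in B6g7, with points for the fitted value and bars for its standard error. Ptcra, Trgv4, Rag1, Rag2 and Dntt lie left of 0 in both strains, and the CD3 chains lie near 0 or to its right.

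With peptide, none of these receptor-linked genes was called by limma in BDC2.5 cells. Over both strains Dntt gave -0.64 ± 0.19 (limma adjusted p = 0.985), Ptcra -0.48 ± 0.15 (0.998) and Rag2 -0.74 ± 0.26 (0.998), while the 3 γ probe sets had a median of 0.25 with 0 called. Of the 8 recombination genes, 7 were lower in NOD and 6 in B6g7, with 0 called.

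Genes with the pattern most like each V segment were taken by the Pearson correlation of log2 values over the 16 arrays, outside the TCR probe sets. Because the V segments differ between BDC2.5 and wild-type arrays, these values include that difference, and they carry no test. For Trav9d-3 (97944_f_at) the closest were Asf1b (0.87), Shisa5 (0.80), Gimap4 (0.80), Crybg1 (0.78) and Vcan (0.77). For Trbv13-2 (101279_f_at) they were H2-T18 (0.86), Ptcra (0.84), Zdhhc14 (0.83), Fbln2 (0.82) and H2-Bl (0.81). For Trbv1 by its brightest probe set (93105_s_at) they were Asf1b (0.87), Vcan (0.83), Adgrl1 (0.82), Rimklb (0.77) and Col13a1 (0.75). After the group means were removed, the correlation of Asf1b was 0.56 with Trav9d-3 and 0.23 with Trbv1. The other listed genes ran from 0.15 to 0.75 for Trav9d-3 and from 0.12 to 0.71 for Trbv1. With Trbv13-2, Ptcra gave 0.72, H2-Bl 0.64, H2-T18 0.49, Fbln2 0.32 and Zdhhc14 0.05.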

How the data were processed

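The deposited values were linear intensities, 1 for each probe set on each array. Their log2 medians lay within 0.11, so the arrays were already near a common level. The sources used here do not name the platform software, background correction or probe set summary. The log2 was taken without a pseudocount, and 66 controls among the 12488 probe sets were dropped. Gene names came from the platform annotation, and 10817 of 10833 probe sets with 1 gene matched RefSeq by gene ID. Differences were fitted with limma 3.58.1 in R 4.3.3 (1 mean per group over all 16 arrays, eBayes with an intensity trend, Benjamini-Hochberg over all probe sets, two-sided) and the script was tested on simulated data. The number of arrays limits the precision.

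The members, gene lists and alternatives were chosen with earlier results of these data known. Every member was reported. Array by array values were planned for the named genes, constant segments and called members. List genes were to be named where called or among the 3 with the smallest p. This was not done for every list in the strain comparisons. The called list genes not given above were in NOD minus B6g7 at 16 h of peptide. They were Cd8b1 (-2.02, limma adjusted p = 0.0247), Blk (-1.38, 0.0117) and Apoe (-2.42, 0.0102). The CD3 chains and Rag1 were named after their values were seen. A gene of a list was read by its brightest probe set. Same-numbered arrays deviated together in the peptide comparisons (correlations 0.25 to 0.79), between strains in BDC2.5 cells (0.17 to 0.84) and in wild-type cells (0.81). In the transgene comparisons those numbered 1 did (0.70 in B6g7 and 0.68 in NOD) and those numbered 2 did not (0.06 and -0.50). This check did not compare arrays of unlike number, and each BDC2.5 array numbered 3 is also set apart. It therefore cannot tell a pairing by number from the array set, and no pairing is concluded. In a group of 2 arrays the deviations mirror each other, so the wild-type value is a single one. The fit with the number as a block was an alternative. The reported peptide tests and intervals do not use the numbers. In the transgene comparisons the block joins arrays numbered 2 that did not deviate together, so its results there are less certain. The labels do not say what a number marks.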

Additional observations from a re-analysis of the deposited data

How the results depend on the processing

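The alternatives were quantile normalization, leaving out probe sets below the 25th percentile (9 of the 10 TCR probe sets stayed), log2 of intensity + 32, no intensity trend, the replicate block, the array set as a block, leaving out the 6 arrays set apart, and leaving out each array. Of 253 counts of called TCR probe sets under them, 245 stayed within 1.5 times the reported count. The reported count was above 0 only for the transgene difference in NOD, in B6g7 and in their mean. Most of the 253 thus set 0 against 0, and this share says little about stability. For the transgene difference in NOD the reported 3 became 0 without the 6 arrays, and lay between 0 and 3 when single arrays were left out, a wild-type group then holding 1 array assumed to vary like the others. In wild-type cells, NOD against B6g7, the reported 0 became 2 with the replicate block, 2 with the array set as a block and 1 without the 6 arrays, and 0 to 1 without single arrays. The replicate block moved no other count of TCR probe sets by over 1.5 times. Counts over all probe sets rose with the replicate block and with the array set as a block: the mean transgene difference from 13 to 28 and 29, wild-type strains from 11 to 32 and 47, strains without peptide from 33 to 69 and 82, at 16 h from 61 to 129 and 144, and the peptide response from 1 to 3 and 4 in B6g7 and from 3 to 7 and 8 in the mean. In NOD it was 0 and, with the array set as a block, 1. Without the 6 arrays, calls for the transgene difference in NOD went from 7 to 0, for strains at 16 h from 61 to 36 and for peptide in B6g7 from 1 to 3. That B6g7 count was also 2 with quantile normalization, 2 with 32 added and 0 with no trend. Leaving out single arrays gave 2 to 8 calls for the transgene in NOD, 6 to 10 in B6g7, 0 to 10 for peptide in B6g7 and in the mean, 2 to 14 for wild-type strains, 15 to 43 for strains without peptide and 15 to 58 at 16 h. Adding 32 to the intensities brought the log2 differences of Trbv13-2 by 101279_f_at to -1.77 in NOD and -2.11 in B6g7. The cause of these moves was not tested. Low signal limits 93224_at and the 3 single α segments on all arrays, and 94202_at, 101279_f_at, 94726_at and Trgv4 in BDC2.5 cells, where most arrays read below the array median.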
